A study of Mus musculus with 20 samples.

Results

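Gene expression was compared between mouse regulatory T cells (Tregs) lacking RagA and RagB (RagAB KO) and wild-type (WT) Tregs, both without stimulation. The members were chosen from the sample titles: 2 RagAB KO arrays and 2 WT arrays, 4 of the 20 arrays of the series. The other arrays of the same experiment held 2 RagAB KO and 2 WT samples stimulated for 8 h, and the remaining 12 belonged to an experiment on Rheb1/2 KO and WT Tregs, 3 arrays for each genotype and state. All cells had the C57BL/6 background and were isolated by CD4 bead enrichment followed by a CD4+CD25+ sort, so both genotypes passed the same gate. The sources used here name neither the promoter that drives the deletion nor the age of the mice. The p-values rest on few samples. Their spread comes from all 4 groups of the experiment, stimulated arrays included, and from an estimate shared across genes.

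RagA and RagB are closely related small GTPases on the lysosome surface. Paired with RagC or RagD, they report that amino acids are available and bring the kinase complex mTORC1 to the lysosome, where Rheb switches it on. In T cells mTORC1 is known to promote growth, protein and lipid synthesis and the passage out of rest, and in Tregs it is known to be needed for suppressive function. The comparison asks which genes depend on RagA and RagB in Tregs that had received no stimulus.

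Each Clariom S array gives 1 signal per probe set, on a log2 scale, so a difference of 1 is a doubling. The 19505 named genes were all tested. Array medians were 7.29 and 7.48 in RagAB KO Tregs, against 7.52 and 7.18 in WT Tregs, so each genotype had 1 array of low median (RagAB KO array 1 and WT array 2). Results are given on the deposited scale and again after quantile normalization of the 8 arrays of the experiment, which removes such differences. T cell identity was plain in all 4 arrays: 10 of 11 T cell markers exceeded the 95th percentile of the array's negative controls in every array, as did 11 of 20 core Treg genes. Foxp3 was not analysed here. The Y-linked genes Kdm5d and Uty were high in the 4 arrays numbered 1 of the experiment (8.32 to 9.05 for Kdm5d, 8.10 to 9.69 for Uty) and low in the 4 numbered 2 (3.78 to 4.91 and 4.59 to 4.84). Each group held 1 array of each kind, so the 2 arrays of a group did not come from the same mouse, and this split does not separate RagAB KO from WT.

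The targeted gene Rraga, which encodes RagA, fell. Its signal was 6.67 and 6.99 in RagAB KO Tregs, against 9.19 and 9.33 in WT Tregs. Both RagAB KO arrays lay far below both WT arrays, and Rraga fell by 2.43 ± 0.25 (log2 change ± SE, n = 2 arrays each, limma adjusted p = 0.0027), a 5.38-fold difference; it was no longer called when either WT array was left out (-2.50 and -2.36). Rragb, which encodes RagB, had signals of 6.56 and 7.42 in RagAB KO Tregs, against 7.17 and 6.98 in WT Tregs. These overlapped, with a change of -0.08 ± 0.30 (n = 2 each, limma adjusted p = 0.97). Which exons were deleted and where the probes lie is not given in the sources used here, so a probe set outside the deleted part would check nothing.

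The partners of RagA and RagB were not called. Rragc differed by -0.01 ± 0.31, and Rragd by 0.45 ± 0.31 (limma adjusted p = 0.996 and 0.84). Rheb, the GTPase that activates mTORC1, differed by -0.75 ± 0.29 (limma adjusted p = 0.68), and its relative Rhebl1 by 0.12 ± 0.24. Of 43 measured genes of the Rag, Ragulator, GATOR and amino acid sensing list, Rraga was the 1 called; the list's median change was -0.08, against 0.03 over all genes tested.

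Across all genes, 1300 had an unadjusted p under 0.05 (6.66%) and 22 were called at an adjusted p under 0.05 (limma, Benjamini-Hochberg over all genes), 0.113% of those tested. Of these, 10 rose in RagAB KO Tregs (0.0513%) and 12 fell (0.0615%), with changes of 1.44 to 2.83 upward and of -1.40 to -2.43 downward. After quantile normalization 43 genes were called (0.22%), 26 higher (0.133%) and 17 lower (0.0872%), and these included all 22. With 2 arrays a group, the count rests on single libraries: none of the 22 stayed called when either unstimulated WT array was left out. Without RagAB KO array 1 part of the 22 lost their call, and without RagAB KO array 2 all stayed, among many more called genes. Leaving out any 1 stimulated array, which the change itself does not use, also cost part of the 22 their call. The 22 genes kept their sign in every such fit. That was fixed in advance, because for each gene both RagAB KO arrays lie on the same side of both WT arrays. No called gene passed the bar set above for T cell markers (95th percentile) on all 4 arrays. Itga9, Trpm1 and Ccr9 passed it on both RagAB KO arrays and Hpgds on 1 of them. Nt5e, H2-Ob, Elovl5 and Trat1 passed it on both WT arrays. The other called genes, Rraga among them, passed it on no array of either genotype.

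**Figure D1:**
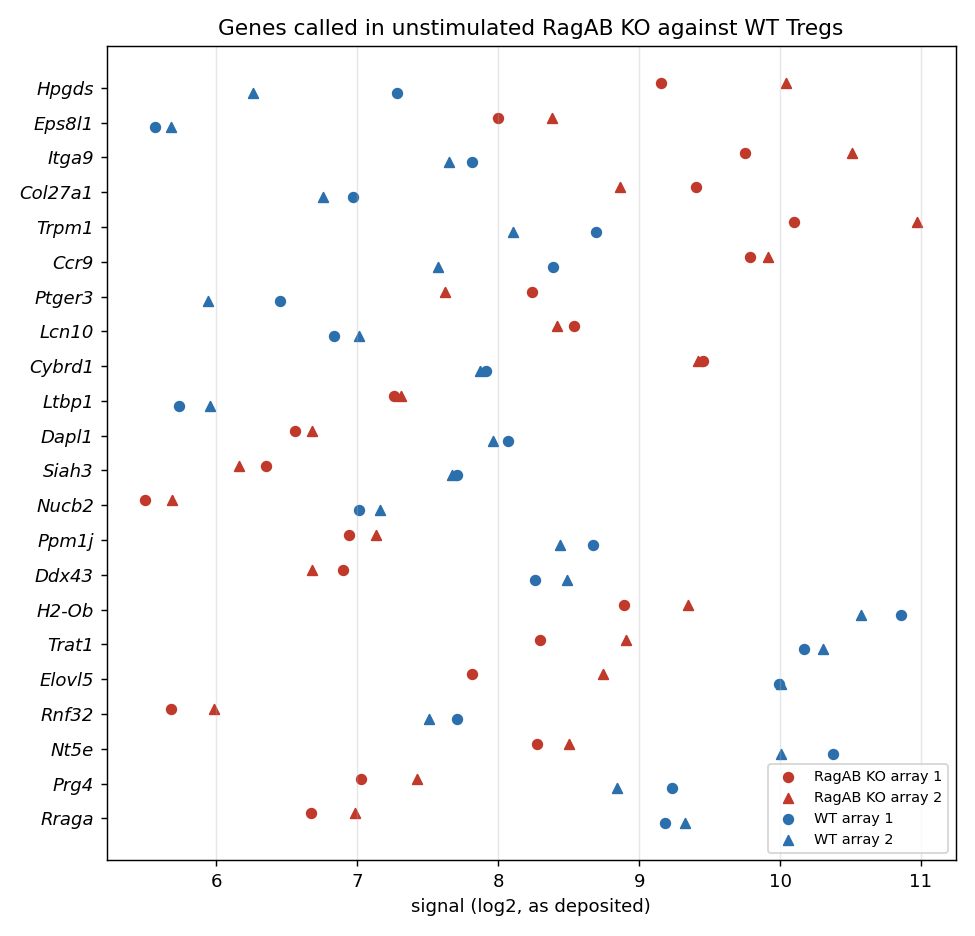
Signal (log2, as deposited) of the 22 called genes in each of the 4 unstimulated arrays; red marks RagAB KO, blue marks WT, circles array 1 and triangles array 2. Each gene's RagAB KO points lie on one side of its WT points; examples are Hpgds (2.83) and Rraga (-2.43).

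A pair of the genes that rose belong to prostaglandin signalling. Hpgds, the haematopoietic synthase that makes prostaglandin D2, had signals of 9.16 and 10.04 in RagAB KO Tregs, against 7.28 and 6.26 in WT Tregs. Both RagAB KO arrays were above both WT arrays, and the change was 2.83 ± 0.41 (limma adjusted p = 0.023, n = 2 each). Ptger3, a receptor for prostaglandin E2, had 8.24 and 7.62 in RagAB KO Tregs, against 6.45 and 5.94 in WT Tregs, a rise of 1.73 ± 0.28 (limma adjusted p = 0.034). For both genes WT array 2 was under its negative-control median, so the size of the rise is uncertain.

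Of the other rises, 4 were in genes of cell adhesion, matrix or migration. Itga9, the integrin α9 subunit, had 9.75 and 10.51 in RagAB KO Tregs, against 7.81 and 7.65 in WT Tregs, and rose by 2.40 ± 0.27 (limma adjusted p = 0.0038). Ccr9, the receptor for the gut chemokine CCL25, which guides lymphocytes to the small intestine, had 9.79 and 9.91 in RagAB KO Tregs, against 8.39 and 7.57 in WT Tregs. It rose by 1.87 ± 0.32 (limma adjusted p = 0.047), close to the threshold, and was the 1 called gene of 22 measured in the migration list. Col27a1, a fibrillar collagen chain, had 9.41 and 8.86 in RagAB KO Tregs, against 6.97 and 6.76 in WT Tregs (2.27 ± 0.27, limma adjusted p = 0.0058). Ltbp1, which binds latent TGF-β in the matrix, had 7.26 and 7.31 in RagAB KO Tregs, against 5.73 and 5.96 in WT Tregs, a rise of 1.44 ± 0.23 (limma adjusted p = 0.033). It was the 1 called of 18 measured genes in the TGF-β list.

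The other 4 rises came from unrelated functions. Eps8l1, a relative of the actin regulator Eps8, had 8.00 and 8.38 in RagAB KO Tregs, against 5.56 and 5.68 in WT Tregs (2.57 ± 0.26, limma adjusted p = 0.0027). Its WT signals, like those of Ltbp1, were under the negative-control median on both arrays, so the size of these 2 rises is uncertain. Trpm1, a cation channel best known from the retina, had 10.10 and 10.97 in RagAB KO Tregs, against 8.70 and 8.11 in WT Tregs, and rose by 2.13 ± 0.31 (limma adjusted p = 0.023). Cybrd1, a ferric reductase of iron uptake, had 9.46 and 9.42 in RagAB KO Tregs, against 7.91 and 7.87 in WT Tregs. Its 2 arrays agree closely in each genotype, and it rose by 1.54 ± 0.22 (limma adjusted p = 0.021). Lcn10, a lipocalin, had 8.54 and 8.42 in RagAB KO Tregs, against 6.83 and 7.01 in WT Tregs (1.56 ± 0.24, limma adjusted p = 0.024).

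Besides Rraga, 11 genes fell. Nt5e encodes CD73, the surface enzyme that turns AMP into adenosine, through which Tregs can restrain other cells. Its signal was 8.28 and 8.50 in RagAB KO Tregs, against 10.37 and 10.01 in WT Tregs, so both RagAB KO arrays were lower than both WT arrays. It fell by 1.80 ± 0.24 (3.49-fold, limma adjusted p = 0.014, n = 2 each). Trat1, an adaptor of the T cell receptor complex, had 8.30 and 8.91 in RagAB KO Tregs, against 10.17 and 10.30 in WT Tregs (-1.63 ± 0.28, limma adjusted p = 0.047). H2-Ob, a chain of the H2-O complex that tunes peptide loading of MHC class II, had 8.89 and 9.35 in RagAB KO Tregs, against 10.86 and 10.57 in WT Tregs, and fell by 1.60 ± 0.26 (limma adjusted p = 0.034).

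Elovl5, which lengthens polyunsaturated fatty acids, was the 1 called of 14 measured fatty acid synthesis genes. Its signal was 7.82 and 8.74 in RagAB KO Tregs, against 9.99 and 10.01 in WT Tregs, a fall of 1.72 ± 0.28 (limma adjusted p = 0.037). The RagAB KO arrays stood further apart than the WT arrays, but both stayed below WT. Prg4, the secreted lubricating proteoglycan lubricin, had 7.03 and 7.42 in RagAB KO Tregs, against 9.23 and 8.85 in WT Tregs (-1.81 ± 0.25, limma adjusted p = 0.020). Dapl1, a gene of naive and memory T cells, had 6.56 and 6.68 in RagAB KO Tregs, against 8.07 and 7.96 in WT Tregs (-1.40 ± 0.22, limma adjusted p = 0.031); it was the 1 called of 23 measured genes in the resting and central T cell list.

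The remaining falls were in genes of varied function. Ppm1j, a protein phosphatase, fell by 1.52 ± 0.23 and Ddx43, an RNA helicase, by 1.59 ± 0.23. Rnf32 and Siah3, both of RING finger families, fell by 1.78 ± 0.27 and 1.44 ± 0.24, and Nucb2, a calcium-binding nucleobindin, differed by -1.498 ± 0.23. Their adjusted p-values ran from 0.023 to 0.038 (limma), and the 2 RagAB KO arrays lay below the 2 WT arrays for each. Rnf32 and Nucb2 were below the median of the negative controls on both RagAB KO arrays, and Siah3 on 1 of them, so the size of these falls is uncertain.

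**Figure D2:**
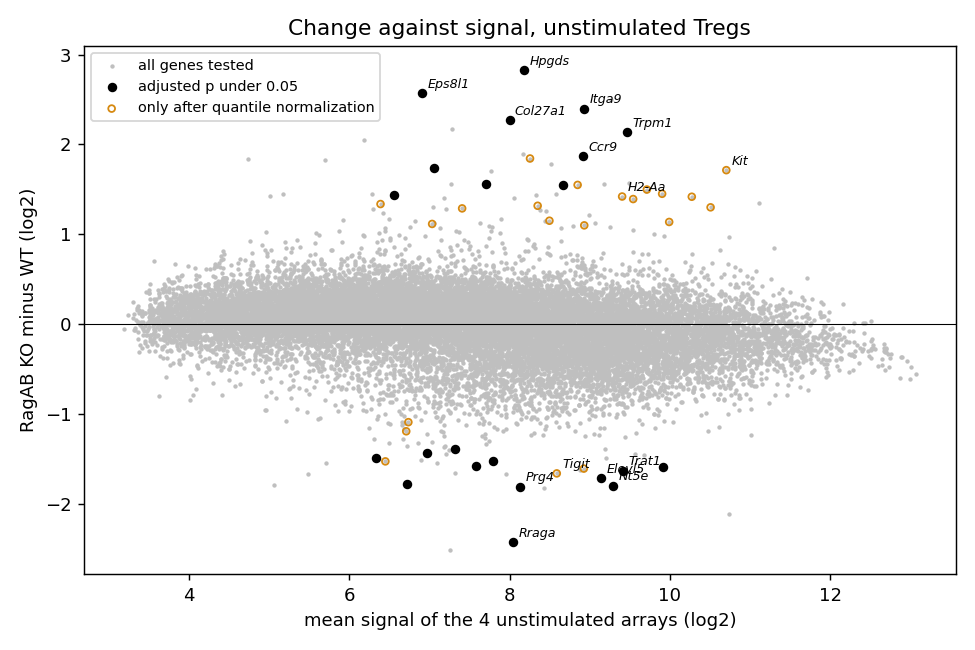
Change (RagAB KO minus WT, log2) against the mean signal of the 4 unstimulated arrays (log2), 1 point per gene; black points are the 22 called genes and open orange points the 21 called only after quantile normalization. Called rises such as Hpgds (2.83) and falls such as Rraga (-2.43) stand outside the grey cloud, whose bright end dips below 0.

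The 21 genes called after quantile normalization only were mostly higher in RagAB KO Tregs. Kit, the receptor for stem cell factor, had deposited signals of 11.18 and 11.94 in RagAB KO Tregs, against 10.49 and 9.20 in WT Tregs; the change was 1.95 after quantile normalization (limma adjusted p = 0.020) and 1.71 before (0.21). Vat1 and the class I myosin Myo1e differed by 1.67 and 1.65 after quantile normalization. Tigit, an inhibitory receptor of T cells and Tregs, went the other way. Its deposited signals were 7.43 and 8.09 in RagAB KO Tregs, against 9.64 and 9.20 in WT Tregs, with no overlap; the change was -1.64 after quantile normalization (limma adjusted p = 0.012) and -1.66 before (0.057). Slc4a8, a sodium-bicarbonate transporter, differed by -1.55 after it (limma adjusted p = 0.020). Bhlhe40, a transcription factor induced by T cell activation, and the chemokine gene Xcl1 were called by the same measure, at 1.63 and 1.25. Plaur, the urokinase receptor, and Lilr4b, an inhibitory leukocyte receptor, missed the threshold on the deposited scale, at 1.29 and 1.84 (both limma adjusted p = 0.060), and passed it after quantile normalization (0.034 and 0.022).

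Treg identity genes showed no common direction. The core Treg list had 20 measured members, of which Nt5e fell and 19 were not called; the median change was -0.16 on the deposited scale and 0.03 after quantile normalization, with a range of -1.80 to 1.34. Ctla4, the inhibitory receptor, had 10.50 and 10.90 in RagAB KO Tregs, against 11.50 and 11.28 in WT Tregs. These did not overlap, but the change of -0.69 ± 0.24 was not called (limma adjusted p = 0.64). Il2ra, which encodes the sort marker CD25, differed by 0.12 ± 0.24, and Ikzf2, which encodes Helios, by -0.09 ± 0.35; for both the arrays overlapped. The T cell marker list had a median of -0.33, or -0.16 after quantile normalization. Myc and Mki67, markers of growth and cycling, differed by 0.18 ± 0.31 and -0.41 ± 0.70, neither called, and no gene of the mitosis (37 measured) or DNA replication (36 measured) lists was called.

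Sterol synthesis and uptake genes, a known target of mTORC1 through SREBP2, were mostly lower without a called member. Of 19 measured, 17 were below 0, where 54.3% of all genes were above 0; none was called, and the median change was -0.50, against 0.03 over all genes; after quantile normalization it was -0.60. For 9 of them both RagAB KO arrays lay below both WT arrays, where 12.5% of all genes did. Hmgcs1, the synthase at the start of the pathway, had 6.11 and 7.13 in RagAB KO Tregs, against 7.54 and 7.96 in WT Tregs (-1.13 ± 0.32, limma adjusted p = 0.45). Fdps, which makes farnesyl diphosphate, had 8.60 and 9.26 in RagAB KO Tregs, against 10.23 and 9.63 in WT Tregs (-1.004 ± 0.29, limma adjusted p = 0.48). Cyp51, the lanosterol demethylase, had 7.41 and 7.59 in RagAB KO Tregs, against 8.38 and 8.26 in WT Tregs, a difference of -0.82 ± 0.23 (0.47). Each of these 3 had groups that did not overlap and none passed the test. The list median was -0.17 in stimulated cells and -0.29 for the Rheb knockout without stimulation.

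Respiratory chain genes also lay low, less so by sign and median after quantile normalization, when 25 of 39 measured were below 0. On the deposited scale 35 of 39 were below 0 (54.3% of all genes were above 0) and none was called. For 13 both RagAB KO arrays lay below both WT arrays (12.5% of all genes), with a median of -0.31 (-0.16 after quantile normalization). After quantile normalization 15 lay below WT without overlap and 1 above, but the share of all genes on that scale is not given here. The median of the cytosolic ribosomal protein genes was -0.26 before and 0.01 after quantile normalization. The ribosomal protein genes are bright on every array, and the median of all genes was 0.03 on both scales; the RagAB KO minus WT values of bright genes dip below 0 before quantile normalization. Lysosome, autophagy and TFEB target genes, which mTORC1 is known to hold down through TFEB, had a median of 0.07 over 32 measured, none called. On the deposited scale 4 lay above WT without overlap (15.9% of all genes) and 1 below (12.5%). After quantile normalization these counts were 13 and 2, again without the share of all genes on that scale. The list's median was 0.36 in stimulated cells, against -0.05 over all genes. Genes of the amino acid response factor ATF4 had a median of 0.00 over 32 measured, none called, but members went both ways: 10 lay below WT without overlap (12.5% of all genes) and 2 above (15.9%), and at an unadjusted p under 0.05 there were 7 lower and 0 higher.

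**Figure D3:**
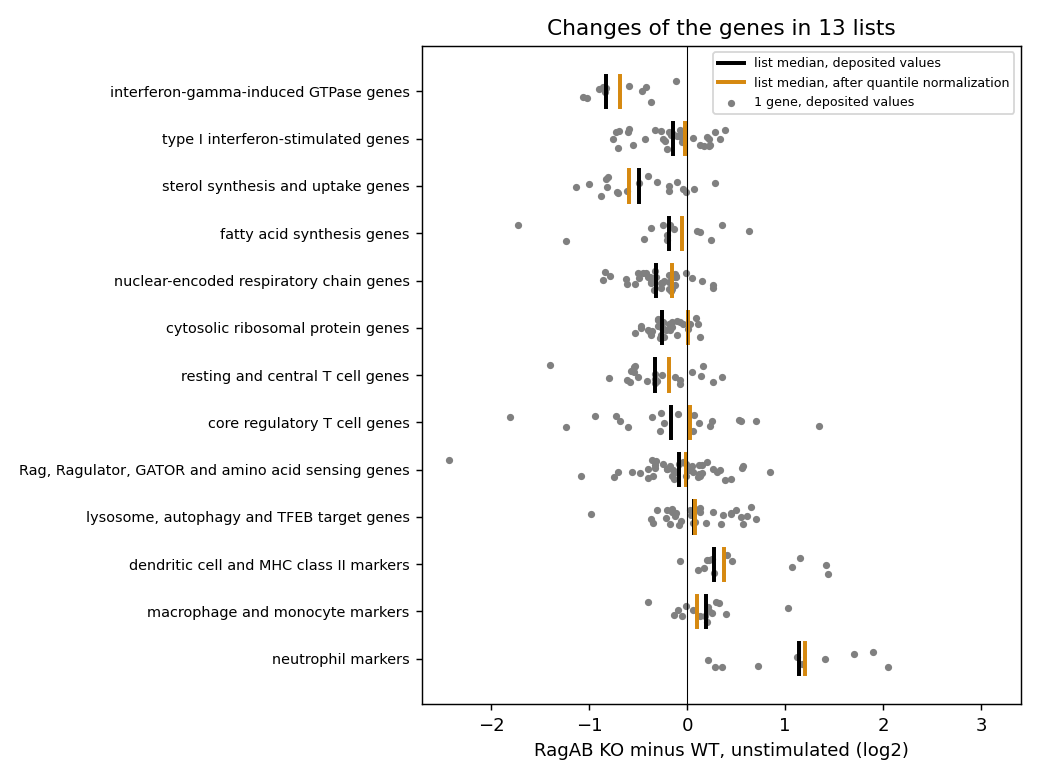
Change (RagAB KO minus WT, log2, unstimulated) of each measured gene in 13 lists (grey points), with the list median on the deposited scale (black bar) and after quantile normalization (orange bar). The interferon-γ-induced GTPase list (-0.83) and the sterol list (-0.50) lie furthest left, the neutrophil list (1.14) furthest right.

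The guanylate-binding proteins and immunity-related GTPases, which attack the vacuoles of intracellular microbes and are switched on by interferon-γ, were lower as a group without a called member. All 11 measured members were below 0, with a median of -0.83 on the deposited scale and -0.68 after quantile normalization; for 8 of 11 the RagAB KO arrays lay below the WT arrays (12.5% of all genes). Igtp had 8.70 and 8.62 in RagAB KO Tregs, against 9.98 and 9.37 in WT Tregs (-1.02 ± 0.26, limma adjusted p = 0.39). Gbp2 had 7.68 and 8.00 in RagAB KO Tregs, against 8.82 and 8.53 in WT Tregs (-0.84 ± 0.24, limma adjusted p = 0.47). Gbp8 had 8.76 and 9.43 in RagAB KO Tregs, against 9.80 and 10.12 in WT Tregs, so none of the 3 overlapped. These genes are close paralogs, so probes could share signal between them. Ifng, which encodes interferon-γ, had 6.13 and 6.59 in RagAB KO Tregs, against 7.77 and 7.39 in WT Tregs (-1.22 ± 0.39, limma adjusted p = 0.58). The type I interferon-stimulated genes had a median of -0.15, or -0.02 after quantile normalization.

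Promoter windows of 300 bases (250 before to 50 after the start, RefSeq, GRCm38.p6) were read for the list genes, because members of the GTPase list differed together. The interferon-stimulated response element core (GAAA, any 2 bases, GAAA), searched on both strands, was in 7 of the 7 GTPase genes with a window, and in 3.44% of all windows. It was in 15 of 24 type I interferon-stimulated genes. The STAT core TTCNNNGAA was in 4 of the 7 (8.3% of all windows). Sterol genes held the sterol regulatory element TCACNCCAC in 1 of 15 (1.24% of all windows), and lysosome genes held CACGTG in 11 of 29 (7.15%). Capitals mark the match; in Igtp the response element does not overlap the STAT core found in the same window. The windows shown are Igtp and Gbp2, named above from the GTPase list, and Hmgcs1, the sterol gene with a match:
Igtp, chr11:58199306-58199605, plus strand, response element core in capitals: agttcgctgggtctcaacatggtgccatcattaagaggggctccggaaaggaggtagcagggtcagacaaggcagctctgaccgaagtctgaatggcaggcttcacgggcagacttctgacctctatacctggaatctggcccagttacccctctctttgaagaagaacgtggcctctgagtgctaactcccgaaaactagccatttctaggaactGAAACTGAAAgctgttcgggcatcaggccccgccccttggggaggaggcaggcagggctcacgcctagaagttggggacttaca
Gbp2, chr3:142620413-142620712, plus strand, the same element in capitals, matched on the opposite strand: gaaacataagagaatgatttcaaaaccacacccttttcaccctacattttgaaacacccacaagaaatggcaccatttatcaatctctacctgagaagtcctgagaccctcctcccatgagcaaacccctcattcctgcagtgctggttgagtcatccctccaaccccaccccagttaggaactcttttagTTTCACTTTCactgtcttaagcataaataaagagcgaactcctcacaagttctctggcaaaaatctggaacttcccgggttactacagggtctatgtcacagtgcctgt
Hmgcs1, chr13:119690101-119690400, plus strand, TCACNCCAC in capitals: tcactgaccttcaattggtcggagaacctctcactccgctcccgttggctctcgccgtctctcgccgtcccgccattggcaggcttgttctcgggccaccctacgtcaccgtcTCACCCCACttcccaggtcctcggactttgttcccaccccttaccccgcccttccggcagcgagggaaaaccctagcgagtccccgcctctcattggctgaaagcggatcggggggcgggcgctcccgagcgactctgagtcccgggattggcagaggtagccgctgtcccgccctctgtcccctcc

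The stimulated arrays entered the calls through the spread but not through the direction. They gave each of the 22 genes the same sign, against 40.6% of all genes with 1 sign in both states. Of the 10 rises, 9 had both stimulated RagAB KO arrays above both WT arrays (18.1% of all genes), and of the 12 falls, 12 had both below (26.2%). A small spread between stimulated arrays favoured a call, so these shares over all genes are not a matched background. The 2 states share no array, but the labels do not say whether they share animals. In stimulated cells 20 genes were called (0.103%), and 7 genes were called in both states (0.0359%): Hpgds, Eps8l1, Itga9, Lcn10 and Cybrd1 rose in both, and Rraga and Nt5e fell in both. Cybrd1 differed by 2.55 ± 0.22 in stimulated cells and by 1.54 ± 0.22 in unstimulated cells.

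**Figure D4:**
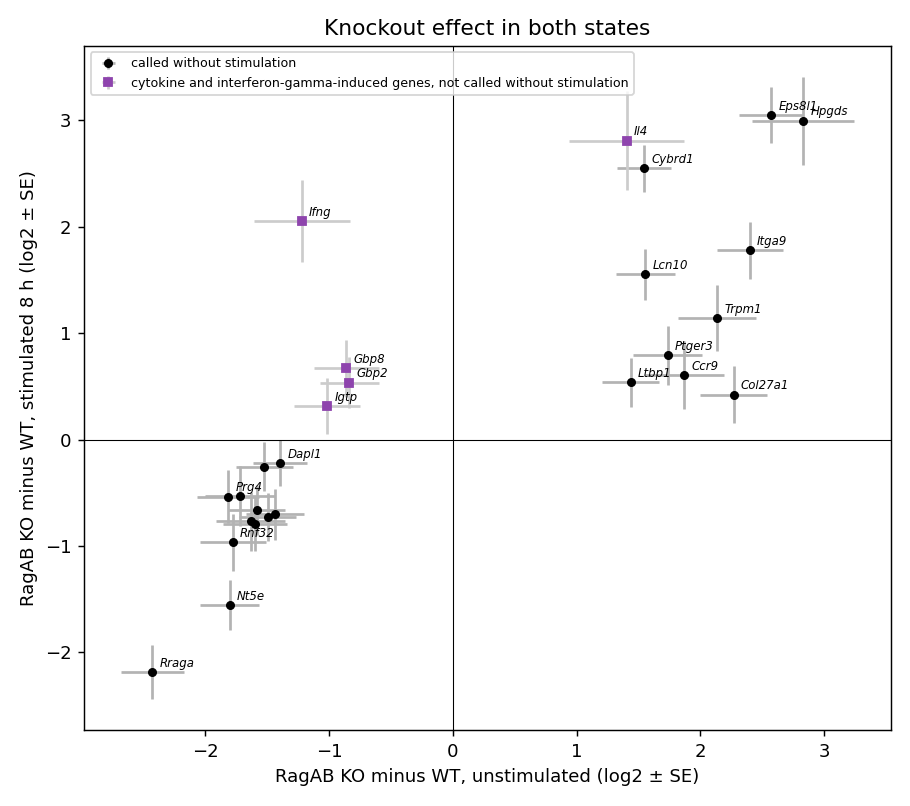
RagAB KO minus WT (log2 ± SE) in cells stimulated for 8 h (vertical axis) against unstimulated cells (horizontal axis), for the 22 called genes (black) and 5 cytokine and interferon-γ-induced genes not called without stimulation (purple). Black points lie in the lower left and upper right; Ifng, Igtp, Gbp2 and Gbp8 lie in the upper left.

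Some genes differed in size or sign between states, but no gene was called for the difference itself (limma, 0 called; 1202 genes had an unadjusted p under 0.05, 6.16%). Col27a1 differed by 2.27 ± 0.27 in unstimulated and 0.42 ± 0.27 in stimulated cells, a difference of 1.85 ± 0.38 (limma adjusted p = 0.73). Ifng was at -1.22 in unstimulated and 2.05 in stimulated cells, a difference of -3.28 ± 0.55 (limma adjusted p = 0.73). The GTPase list's median was -0.83 in unstimulated and 0.39 in stimulated cells, where 10 of 11 members were above 0 (41.5% of all genes). Il4, the type 2 cytokine, was higher in both states: 8.03 and 7.75 in RagAB KO Tregs, against 7.22 and 5.75 in WT Tregs without stimulation. That change was 1.40 ± 0.47 (limma adjusted p = 0.61), against a called rise of 2.81 ± 0.47 in stimulated cells (limma adjusted p = 0.043).

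Against the knockout of Rheb1 and Rheb2 in unstimulated cells, 11 genes (0.0564%) were called for a difference between the 2 knockout effects (limma fit of all 20 arrays). Each effect used the matching experiment's own WT arrays. Hpgds differed by 2.83 in RagAB KO Tregs and -0.27 in Rheb1/2 KO Tregs. Il4 differed by 1.40 in RagAB KO Tregs and -1.31 in Rheb1/2 KO Tregs. Nt5e differed by -1.80 in RagAB KO and -0.71 in Rheb1/2 KO Tregs, but the difference of -1.09 ± 0.21 was not called (limma adjusted p = 0.054). The fall of Nt5e in Rheb1/2 KO Tregs was itself called (limma adjusted p = 0.028). Prg4 (-1.19, limma adjusted p = 0.0085), Dapl1 (-0.94, 0.0060) and Ddx43 (-0.93, 0.013) were also called lower in Rheb1/2 KO Tregs. The remaining genes called in RagAB KO Tregs were not called there.

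Markers of other cell types were mostly dim, and some moved with single arrays. The 95th percentile of negative controls was passed on any of the 4 arrays by 3 of 10 neutrophil markers. It was passed by 2 of 13 MHC class II and dendritic cell, 1 of 16 macrophage and 1 of 12 mast cell and basophil markers. No B cell (11 measured) or NK cell (10 measured) marker passed it. MHC class II and dendritic cell markers were above 0 in 12 of 13, with a median of 0.28 (0.37 after quantile normalization); for 9 of 13 both RagAB KO arrays lay above both WT arrays, against 15.9% of all genes. H2-Aa, an MHC class II chain, had 9.76 and 10.47 in RagAB KO Tregs, against 8.998 and 8.39 in WT Tregs, and was called after quantile normalization (1.57, limma adjusted p = 0.012), as was H2-Ab1 (1.26, 0.041). The list's mean signal was 7.59 and 7.75 in RagAB KO Tregs, against 7.35 and 6.90 in WT Tregs. Neutrophil markers were above 0 in 10 of 10, with a median of 1.14, but their mean signal was 6.97 and 8.89 in RagAB KO Tregs, against 7.44 and 6.24 in WT Tregs. The high value came from RagAB KO array 2 and the groups overlapped; Mpo had 7.64 and 10.59 in RagAB KO Tregs, against 8.47 and 5.98 in WT Tregs.

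On the deposited scale Hpgds, Kit, Trpm1, H2-Aa, Myo1e, Ccr9 and Itga9 were highest in RagAB KO array 2 and lowest in WT array 2. The neutrophil list shared these ends but, unlike these genes, had RagAB KO array 1 below WT array 1. The share of all genes with this order was not counted. Other called rises differed: Col27a1, Ptger3, Lcn10 and Cybrd1 were highest in RagAB KO array 1, and Eps8l1, Lcn10 and Ltbp1 lowest in WT array 1. After quantile normalization Hpgds, Trpm1 and H2-Aa kept the order. Ccr9 was then highest in RagAB KO array 1, and Itga9 lowest in WT array 1. Mast cell and basophil markers, a list added after the values were seen, had a mean signal of 6.46 and 6.68 in RagAB KO Tregs, against 6.54 and 5.90 in WT Tregs, with 6 of 12 genes below the median of the negative controls on all 4 arrays. Macrophage markers had 6.13 and 6.44 in RagAB KO Tregs, against 6.34 and 5.90 in WT Tregs, with none of 16 above the 95th percentile of negative controls on all 4 arrays. B cell markers had 6.94 and 7.41 in RagAB KO Tregs, against 7.25 and 6.81 in WT Tregs, so these 3 lists overlapped between genotypes on the deposited scale. After quantile normalization the mast cell and basophil list had 6.56 and 6.66 in RagAB KO Tregs, against 6.49 and 6.13 in WT Tregs, without overlap. On the deposited scale 11 of 12 mast cell and basophil, 8 of 11 B cell and 11 of 16 macrophage markers were above 0 (54.3% of all genes). Of these lists 3, 5 and 4 genes lay above WT without overlap (15.9% of all genes), and 0, 0 and 1 below (12.5%). NK cell markers had a median change of 0.55 (0.46 after quantile normalization), with 7 of 10 above 0 and none called. For 4 of 10 both RagAB KO arrays lay above both WT arrays (15.9% of all genes). Their mean signal was 6.02 and 6.63 in RagAB KO Tregs, against 6.03 and 5.65 in WT Tregs, and after quantile normalization 6.10 and 6.61 in RagAB KO Tregs, against 5.99 and 5.86 in WT Tregs. On that scale the NK groups did not overlap, and 4 of the 10 genes were below the negative-control median on all 4 arrays. The part of other cells in the called genes was not tested, and in bulk samples fewer cells of a type and less RNA per cell cannot be told apart.

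**Figure D5:**
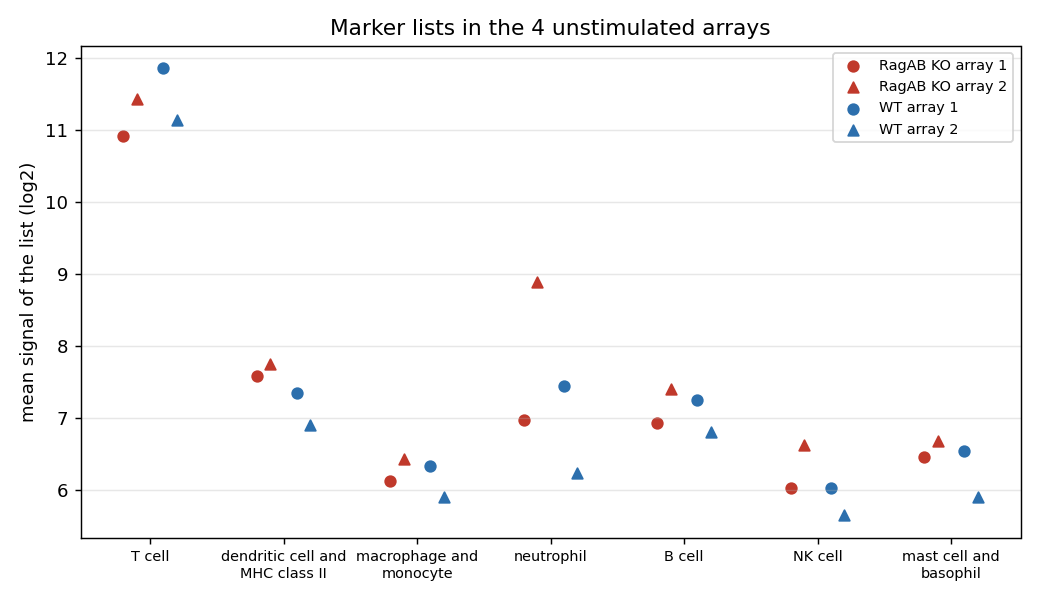
Mean signal (log2) of each marker list in the 4 unstimulated arrays, RagAB KO (red) left of WT (blue), circles for array 1 and triangles for array 2. The neutrophil list is highest in RagAB KO array 2 (8.89) and lowest in WT array 2 (6.24); T cell markers lie far above the others in each array.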

How the data were processed

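The authors deposited log2 gene-level signals made by RMA with Affymetrix Expression Console 1.1, per the submitters' processing notes; RNA was amplified and biotin-labelled, per the labels' protocols. Of 28846 probe sets, 19572 carried 1 gene in the platform annotation; for the 55 genes with several probe sets the brightest was kept. Nothing was rescaled for the main results. limma 3.58.1 in R 4.3.3 fitted 4 groups to the 8 arrays of the Rag experiment (two-sided, Benjamini-Hochberg over 19505 genes, called under 0.05). The fit was checked on simulated data with independent noise, of equal spread in every group for each gene. That check does not cover differences between arrays in median or spread. The number of arrays limits precision: an exact permutation test of 2 against 2 cannot go below p = 0.333. Alternatives covered normalization, dim genes, variance prior, arrays in the fit, weights, probe sets, the replicate block and each array left out. The members, 36 gene lists and the naming rule were chosen with earlier results of these data known. The mast cell and basophil list was added to the 36 after the values were seen, and with it the lists held 750 measured genes. The rule named targeted and Treg genes, up to 12 called rises and falls with arrays apart, leading list members, and genes called against Rheb or after quantile normalization only. Array numbers mark a trait shared across groups (Y-linked genes). Over all genes on the deposited scale, same-numbered deviations from the group means correlated by only -0.02 in unstimulated and 0.10 in stimulated arrays. For this reason the block by number was kept as an alternative. These correlations do not show that the trait left single genes unchanged.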

Additional observations from a re-analysis of the deposited data

Results flagged for a closer look

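The knockout effect in unstimulated cells differed between RagAB KO and Rheb1/2 KO for 10 of the genes named, by the limma test of the difference over all 20 arrays (RagAB KO effect minus Rheb1/2 KO effect, log2 ± SE). Among genes higher in RagAB KO Tregs, the difference was 3.10 ± 0.43 for Hpgds (adjusted p = 0.0025), 2.42 ± 0.45 for the gut-homing receptor Ccr9 (0.041), 2.41 ± 0.42 for Eps8l1 (0.032) and 2.17 ± 0.31 for Col27a1 (0.0025). It was 2.31 ± 0.33 for the inhibitory receptor Lilr4b (0.0025) and 1.59 ± 0.21 for the lipocalin Lcn10 (0.0015). Il4 differed by 2.72 ± 0.48 (0.037), with opposite signs in the knockouts. Among genes lower in RagAB KO Tregs, the difference was -2.51 ± 0.25 for the targeted gene Rraga (4e-05), -1.50 ± 0.27 for the fatty acid elongase Elovl5 (0.041) and -1.49 ± 0.27 for the receptor adaptor Trat1 (0.041). The Rheb1/2 KO effects of these genes lay between -1.31 (Il4) and 0.16 (Eps8l1). The experiments had different WT arrays and array medians (7.18 to 7.55 in the Rag experiment, 7.67 to 7.77 in the Rheb experiment), so experiment and knockout cannot be told apart beyond each effect's own controls. Groups of 2 or 3 arrays were too small to test for single outlying samples.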

How the results depend on the processing

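The 22 called genes kept their sign in the alternatives run, except that 4 of them have no value without the dimmest 40% of genes. With single arrays left out this was fixed in advance, because their groups do not overlap. The counts moved. Against 22 called genes (10 higher, 12 lower; 6 in gene lists), quantile normalization gave 43 (26 higher, 17 lower; 11 in lists) and centring on array medians 35 (17 higher). Leaving out the dimmest 40% of genes gave 36 (19 higher), with the 18 of the 22 that stay in the test. A trended and robust variance prior gave 96 (41 higher, 55 lower; 11 in lists), all 20 arrays in the fit 210 (70 higher, 140 lower; 27 in lists), only the 4 unstimulated arrays 12 (4 lower; 3 in lists) and array weights 4 (3 higher, 1 lower; 1 in lists). With 1 array left out, the counts ran from 0 to 530 (0 to 69 higher, 0 to 461 lower; 0 to 34 in lists); the lone array is then assumed to vary like the other groups. The array weights were 0.53 to 0.76 for the unstimulated arrays and 1.16 to 2.11 for the stimulated arrays. The replicate block gave 27, with all 22 among them (7 in lists). Rraga ranged from -2.59 to -2.27 with single arrays left out, was at -2.20 without RagAB KO array 1 and WT array 2 together, and lost its call without either unstimulated WT array (-2.50 and -2.36).

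For the difference between states, 0 genes were called; leaving out the dimmest 40% of genes gave 1, the trended prior 10, all 20 arrays 25 and single arrays left out 0 to 387. For the difference from Rheb1/2 KO, 11 were called; the same filter gave 17, the trended prior 6, quantile normalization of all 20 arrays 21, and single arrays left out 7 to 871. The sterol and GTPase list medians stayed below 0 in 10 of 10 alternatives run on them (-0.70 to -0.15 and -0.98 to -0.41), while the core Treg median changed sign in 4, and the ribosomal protein and lysosome medians in 2 each. The cause of these shifts was not tested.

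Uncalled genes changed sign. With single arrays left out the range was -0.51 to 0.35 for Rragb, -0.56 to 0.54 for Rragc, -0.091 to 0.98 for Rragd, -0.086 to 0.33 for Rhebl1, -0.10 to 0.34 for Il2ra, -0.61 to 0.43 for Ikzf2, -0.29 to 0.65 for Myc and -1.37 to 0.55 for Mki67. A pair of alternatives was added after seeing the data. Without RagAB KO array 1 and WT array 2 together, 23 genes were called (13 of the 22), with Rragb at 0.25, Rragc 0.60, Il2ra -0.082, Ikzf2 0.25 and Myc -0.015. With quantile normalization and RagAB KO array 1 left out, 15 were called (4 lower; 3 in lists; 9 of the 22), with Rragb at 0.22, Rragc 0.43, Ikzf2 0.35 and Mki67 0.49. Ikzf2 was at 0.058 after quantile normalization alone.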

Other observations

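Of the 22 called genes, 5 lie on chromosome 9 in the RefSeq annotation (22.7%), against 5.79% of all genes tested: Itga9 and Ccr9, which rose, and Nt5e, Elovl5 and Ddx43, which fell. They were singled out after their values were seen, and no test was made. Elovl5 and Ddx43 have 12 other protein-coding genes between them, Ddx43 and Nt5e 37, Nt5e and Itga9 312, and Itga9 and Ccr9 73. After quantile normalization 6 of 43 called genes lay there (14%). The targeted genes lie on other chromosomes, Rraga on 4 and Rragb on X; of the other called genes, Col27a1 lies on chromosome 4. The breeding of the mice is not given in the sources used here.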
